A study of Mus musculus with 9 samples.

Results

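The genes described here are 8 cathepsins (Ctsa, Ctsb, Ctsc, Ctsd, Ctsh, Ctsl, Ctss and Ctsz), the asparaginyl protease legumain (Lgmn) and the cathepsin inhibitor cystatin C (Cst3), 10 of the 20627 features in the deposited count table. They were found by gene name, with the transcript number at the end of each name removed; all 10 had a row and all 10 passed the filter on low counts. Ctsk, the cathepsin of osteoclasts, was not among them and appears below for comparison. Polyadenylated RNA had been sequenced from RAW264.7 cells, an established macrophage-like line from mouse, in 3 groups of 3 libraries. HG-SIG cells received 35 mmol/l glucose together with sitagliptin phosphate for 6 h, HG cells the same glucose for 6 h without the drug, and NC was the control; the labels and design text give no glucose concentration or time for it. Sitagliptin inhibits dipeptidyl peptidase 4 and is given in type 2 diabetes. No group had sitagliptin without added glucose or an osmotic control, and nothing says that the 3 libraries of a group came from separate cultures, so p-values measure the spread between these libraries, which may be technical.

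Lysosomal proteases are made as inactive precursors, receive a mannose 6-phosphate tag in the Golgi apparatus and are carried by its receptors to endosomes and lysosomes, where low pH and other proteases remove the propeptide. Most cathepsins are cysteine proteases of the papain family; cathepsin D uses an aspartate and cathepsin A a serine for catalysis. In macrophages they digest phagocytosed material, trim antigens and the invariant chain of class II molecules, and cut the endosomal Toll-like receptors into their signalling forms. Cystatin C is a secreted protein that blocks papain-like cathepsins and, at another site of the molecule, legumain.

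Library totals lay between 28886288 and 30752927 counts in HG-SIG, 23285821 and 29543475 in HG, and 25527773 and 31571578 in NC. A total of 3 counts in a library corresponds to 0.095 to 0.129 CPM (here relative to the plain library total), far below the level of 9 of the 10 members. The exception, Ctsh, had 15 to 83 counts per library. All other CPM values, of genes or summed over lists, are TMM-scaled, with each library total multiplied by its TMM factor. The factors were 1.078 to 1.091 in HG-SIG, 0.9609 to 0.9767 in HG and 0.948 to 0.9545 in NC. This scaling lowers the levels given for HG-SIG and raises those given for HG and NC. HG replicate 3 was set off from HG replicates 1 and 2 along principal component 3, which held 7.37% of the variance (scores of 27.3 for replicate 3, -14.9 and -10.4 for the others). Markers of other cell types were near 0: the summed level of the neutrophil list was at most 0.468 CPM, with 0 counts of Mpo in HG-SIG and HG and 1 in NC, and that of the epithelial list at most 0.0669 CPM. The fibroblast list summed to at most 0.870 CPM, and the lymphocyte list, at most 3.34 CPM, was mostly Lck (2.02 to 3.19 CPM). Of 12 macrophage markers, all 12 were in the table and 11 had enough counts to be tested.

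Levels were compared between genes as TMM-scaled CPM per kilobase of the principal transcript of GENCODE M21 (the shortest, where there were 2). Cst3 had the highest level per kilobase in all 3 groups, at 701 ± 22.8 in HG-SIG, 1129 ± 87.8 in HG and 860 ± 53.2 in NC (SD, n = 3). Ctsh had the lowest, at 0.811 ± 0.181 in HG-SIG, 1.47 ± 0.475 in HG and 0.425 ± 0.105 in NC. Ctsc came next to last in each group, at 24.2 in HG-SIG, 30.5 in HG and 32.9 in NC.

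Between these ends the order in HG-SIG was Ctsd (233 CPM per kilobase), Ctss (218), Ctsz (218), Ctsl (204), Ctsb (187), Lgmn (135) and Ctsa (117), and only Ctss and Ctsz overlapped among neighbours. In HG it was Ctsd (352), Ctss (304), Ctsl (302), Ctsb (267), Ctsz (264), Lgmn (214) and Ctsa (158), with overlap between Ctss and Ctsl and between Ctsb and Ctsz. In NC it was Ctsl (428), Ctsd (395), Ctsz (324), Ctsb (319), Ctss (292), Lgmn (165) and Ctsa (161), with overlap between Ctsz and Ctsb and between Lgmn and Ctsa. Ctsl thus stood in place 5 in HG-SIG, 4 in HG and 2 in NC. The place of Ctsl depends on the transcript: with its longer principal form (6168 bases, against 1971) its level was 65.1 in HG-SIG, 96.4 in HG and 137 in NC, place 8 in each group.

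Transcription factors of the MiT family (TFEB, TFE3, MITF and TFEC) bind a short palindrome, the E-box CACGTG, in front of many lysosomal genes. RefSeq promoter windows (assembly GRCm38.p6, 250 bases before to 50 after a transcript start) were at hand for 8 of the 10 genes, as 10 windows. CACGTG, which reads the same on both strands, occurred in 4 of these 10 windows, 1 each of 4 genes, and in 7.15% of the 32851 windows of all genes. The longer TCACGTG, which contains it, was found on either strand in 3 of the 10 (Ctsa, Ctsd and Lgmn) and in 3.77% of all windows. The 4 windows are shown because they hold these letters; capitals mark CACGTG. Ctsa and Lgmn each had another window without CACGTG, and that window spans the outermost start of the gene in GENCODE M21. The windows shown for Ctsa, Ctsl and Lgmn lie wholly inside the annotated gene, downstream of its outermost start. All 10 members fell in HG-SIG against HG, so that fall does not set the 4 genes with CACGTG apart. Among the 10 were Ctsc, Ctss, Ctsz and Cst3, whose windows lack the letters, and Ctsb and Ctsh, which had no window. In HG against NC Lgmn rose, Ctsd and Ctsl fell and Ctsa was not called. A match is a description of the letters and not evidence of binding. Coordinates and strands are chr2:164833523-164833822 (plus) for Ctsa, chr7:142387778-142388077 (minus) for Ctsd, chr13:64370471-64370770 (minus) for Ctsl and chr12:102439043-102439342 (minus) for Lgmn.
Ctsa: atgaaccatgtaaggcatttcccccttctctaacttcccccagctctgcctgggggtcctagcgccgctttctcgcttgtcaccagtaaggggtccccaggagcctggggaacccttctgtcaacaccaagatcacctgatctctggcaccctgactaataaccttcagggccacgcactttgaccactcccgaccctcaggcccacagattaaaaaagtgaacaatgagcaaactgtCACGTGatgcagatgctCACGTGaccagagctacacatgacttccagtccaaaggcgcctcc
Ctsd: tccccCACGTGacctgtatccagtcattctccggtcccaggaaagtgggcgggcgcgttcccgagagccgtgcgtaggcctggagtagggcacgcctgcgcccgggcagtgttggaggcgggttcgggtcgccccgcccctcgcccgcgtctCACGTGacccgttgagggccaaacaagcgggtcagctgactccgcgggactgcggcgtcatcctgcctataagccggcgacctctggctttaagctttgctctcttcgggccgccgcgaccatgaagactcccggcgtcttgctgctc
Ctsl: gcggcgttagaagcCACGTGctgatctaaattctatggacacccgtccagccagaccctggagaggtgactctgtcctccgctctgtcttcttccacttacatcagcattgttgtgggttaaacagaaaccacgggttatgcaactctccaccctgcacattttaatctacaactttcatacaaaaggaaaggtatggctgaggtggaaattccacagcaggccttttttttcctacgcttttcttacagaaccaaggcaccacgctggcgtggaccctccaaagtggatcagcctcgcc
Lgmn: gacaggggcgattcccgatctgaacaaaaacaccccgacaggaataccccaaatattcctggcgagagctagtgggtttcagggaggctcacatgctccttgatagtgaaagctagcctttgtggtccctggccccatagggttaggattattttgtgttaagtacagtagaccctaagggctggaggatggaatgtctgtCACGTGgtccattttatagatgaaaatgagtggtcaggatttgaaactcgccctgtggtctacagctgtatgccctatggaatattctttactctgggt
The Ctsa window holds the E-box at 2 places close to the transcript start of that window, and the Ctsd window at 2 places that lie far apart. GGGCGG, the GC box, was in 6 of 10 member windows and in 35.7% of all windows, and GAGGAA, the letters found in PU.1 sites, in 3 of 10 and 28.3%. TATAAA was in 2 of 10 and 13.6%, and TGANTCA, the AP-1 element, in 0 of 10 and 7.81%, each searched on both strands.

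Sitagliptin under high glucose was compared with high glucose alone, the contrast that the series' design text names. All 10 members fell in HG-SIG relative to HG, by 0.28 (Ctsz) to 0.85 (Ctsh) on the log2 scale. In TMM-scaled CPM the HG-SIG and HG libraries did not overlap for any of the 10. As a share of library counts Ctsz did overlap, at 0.0350% in HG replicate 3 against 0.0353% in HG-SIG replicate 1. Lgmn, Cst3 and Ctsd fell most among the abundant members, to 0.632, 0.621 and 0.661 of their HG levels. Of all 13311 genes tested, edgeR's quasi-likelihood test called 52.5% at an adjusted p under 0.05, 26.8% lower and 25.7% higher, and 58.7% had no overlap between libraries, 28.8% with HG-SIG lower. The median log2 fold change of the 10 was -0.54, against 0.01 for all genes tested. The series states an absolute log2 fold change of 1 as its criterion; 5.3% of all genes were called and past it, and 0 of the 10 members.

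With TMM scaling, most abundant genes were lower in HG-SIG. Of 961 genes with a mean of 200 CPM or more, a limit chosen after the values were seen, 66.1% were called lower and 6.66% higher in HG-SIG against HG, with a median log2 fold change of -0.20. With library size alone, 33.8% of them were lower and 26.0% higher, with a median of -0.04, and with limma on log2(TPM + 1), which had 897 of these genes, 28.7% were lower and 34.8% higher, with a median of 0.01, so this lean depends on the scaling. The members at or above that level were 8 of the 10, all but Ctsc and Ctsh. The direction of the members did not hang on the scaling: with library size alone, which moved the median of all genes to 0.17 and the share of calls that were higher to 76.9%, against 48.9% with TMM, all 10 were still called lower, by 0.11 (Ctsz) to 0.69 (Ctsh). With limma on log2(TPM + 1), the scale the series' text names, 81.9% of calls were higher. All 10 log2 fold changes stayed negative, and Ctsc (adjusted p = 0.0609) and Ctsz (adjusted p = 0.160) were no longer called. The share of library counts was also taken, a measure scaled by library size alone. On that same scale of library size alone, the 10 genes took 0.401% to 0.407% of a library's counts in HG-SIG. They took 0.510% to 0.538% in HG and 0.534% to 0.557% in NC.

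Markers of macrophages were lower together with the members. Of the 11 tested, 11 fell and 0 rose in HG-SIG against HG, 6 fell and 2 rose in HG against NC, and 10 fell and 0 rose in HG-SIG against NC. Lower calls made up 26.8%, 15.2% and 28.7% of all genes in these comparisons. With library size alone 10 fell and 0 rose in HG-SIG against HG, and with limma on log2(TPM + 1) 8 fell and 0 rose. The summed level of the list of 12 was 5439 to 5542 CPM in HG-SIG, 10324 to 11131 in HG and 11487 to 11944 in NC; Lyz2, the lysozyme gene, gave 2823 ± 65.4 in HG-SIG, 6107 ± 408 in HG and 6286 ± 232 in NC (SD, n = 3). Spi1, which encodes PU.1, was at 191 ± 2.23 CPM in HG-SIG, 314 ± 19.3 in HG and 365 ± 22.2 in NC. In bulk RNA of a cell line, fewer cells that express a gene and less of its RNA per cell cannot be told apart. The part of these markers in the members' change was not tested.

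**Figure D1:**
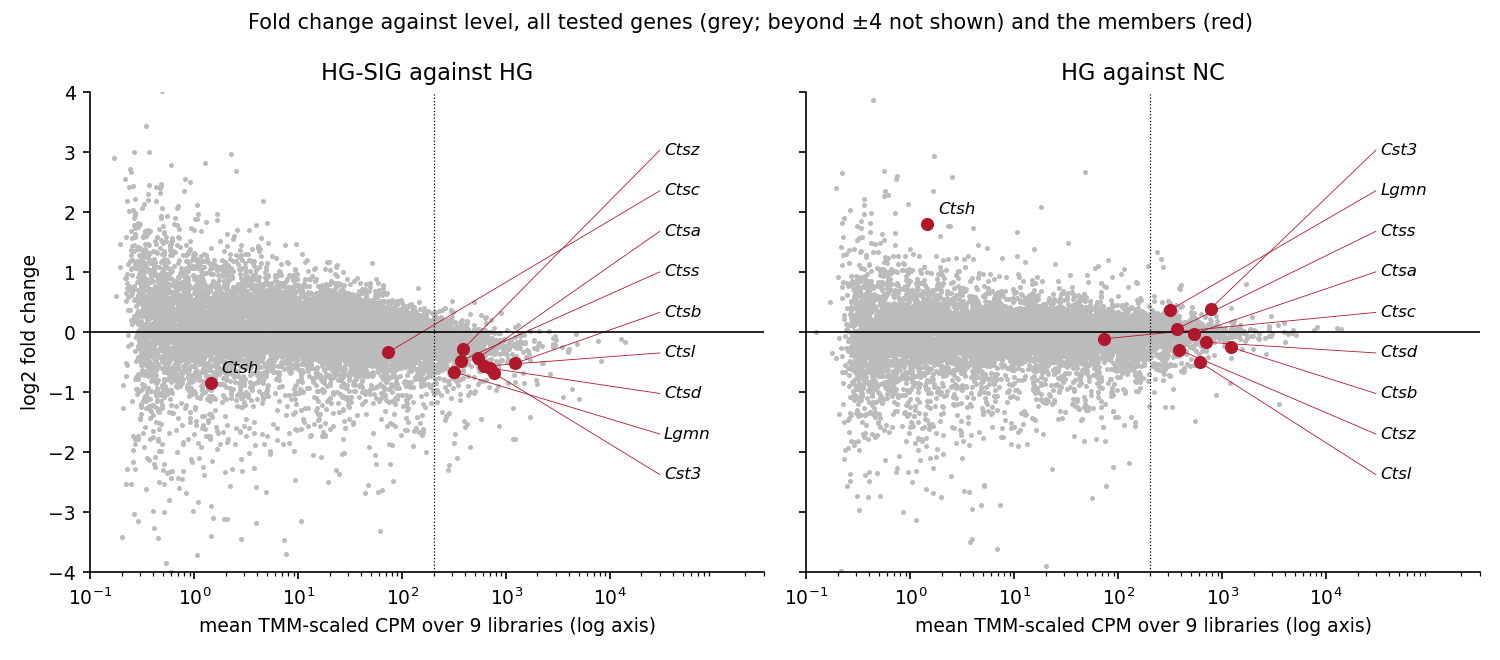
Log2 fold change against mean TMM-scaled CPM over 9 libraries (log axis) for all tested genes in grey and the members in red, HG-SIG against HG on the left and HG against NC on the right; the dotted line marks 200 CPM. On the left all 10 members lie below 0. The 8 members at 200 CPM or more lie where, with TMM scaling, most grey points do too (66.1% called lower). Ctsc and Ctsh lie at lower levels. On the right the members spread on both sides of 0, with Ctsh at 1.80.

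HG was compared with NC, without an osmotic control and with no stated glucose concentration or time for NC. Here the members split. Lgmn, Cst3 and Ctsh rose in HG, Ctsl, Ctsz, Ctsb and Ctsd fell, and Ctsa, Ctsc and Ctss were not called. The 7 calls among 10 stand beside 29.5% of all genes called (14.3% higher and 15.2% lower), and the 7 members without overlap between HG and NC libraries beside 41.7% of all genes, 20.8% with HG higher and 20.8% with HG lower. Of the 961 genes of 200 CPM or more, 18.8% were called higher and 20.4% lower. The median log2 fold change of the 10 was -0.07, against 0.00 for all genes, but their median absolute value was 0.27, against 0.14. Of the members, Ctsh was past a log2 fold change of 1; 2.85% of all genes were called and past it.

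HG-SIG was also set against NC. There 9 members were lower and Ctsh was higher, and none overlapped in TMM-scaled CPM. As a share of library counts Cst3 did overlap, at 0.0654% in NC replicate 3 against 0.0665% in HG-SIG replicate 1. Of all genes 58.6% were called, 29.9% higher and 28.7% lower, and 65.9% did not overlap, 31.7% with HG-SIG lower and 34.2% with HG-SIG higher. Among the 961 genes of 200 CPM or more, 62.3% were lower and 11.1% higher, but with library size alone 31.9% were lower and 34.1% higher. The members' median log2 fold change was -0.45, against 0.02 for all genes. Ctsl, at -1.07, was past the fold criterion; 8.51% of all genes were called and past it. Each group enters 2 of the 3 comparisons, so the sets of values are not independent of each other.

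**Figure D2:**
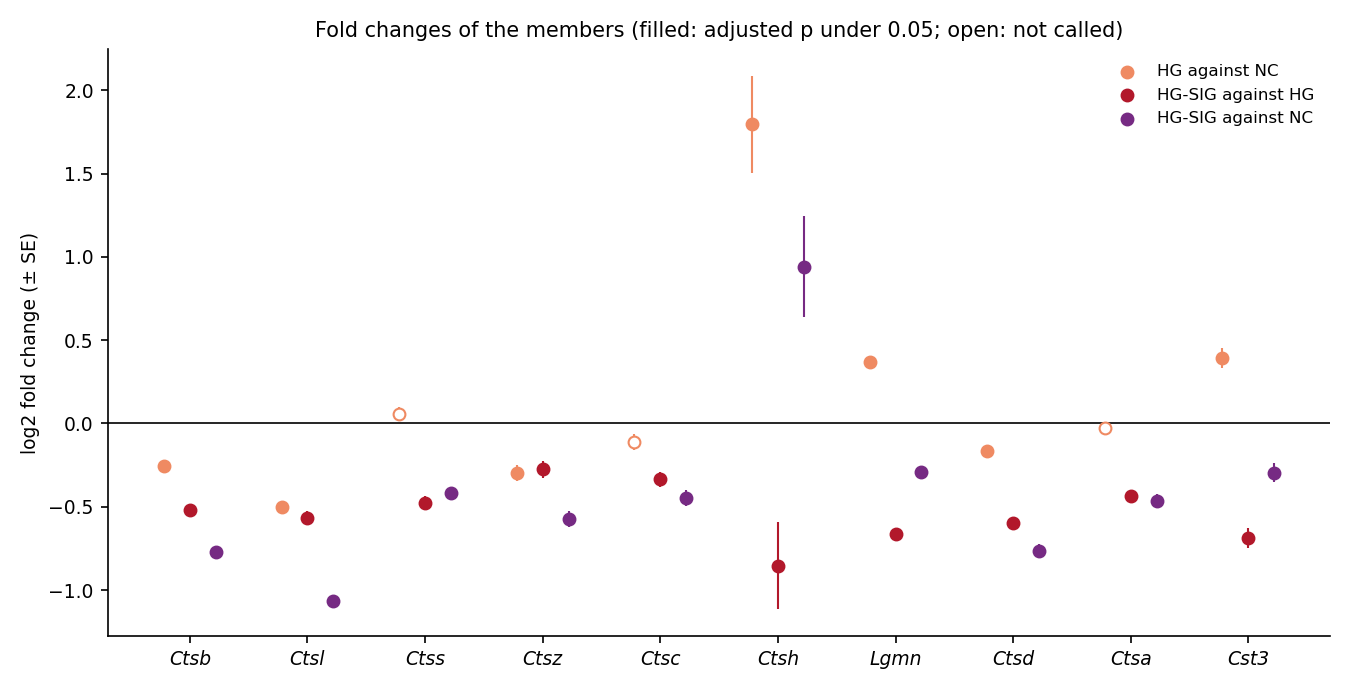
Log2 fold change ± SE of each member in the 3 comparisons (edgeR, 3 libraries per group; filled points have an adjusted p under 0.05). HG-SIG against HG is below 0 for all 10 genes, while HG against NC runs from -0.50 for Ctsl to 1.80 for Ctsh.

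Cathepsin B cleaves inside proteins and also removes dipeptides from their carboxyl end. Ctsb (ENSMUSG00000021939, chr14:63122462-63145923, plus strand) had the highest CPM of the 10, at 873, 909.9 and 876 in HG-SIG, 1254, 1311 and 1241 in HG, and 1520.5, 1545 and 1473 in NC. The 3 groups were fully separated, with HG between the others. Ctsb fell by 0.52 on the log2 scale in HG-SIG against HG (SE 0.04, adjusted p = 1.85e-07), by 0.25 in HG against NC (SE 0.04, adjusted p = 1.90e-04) and by 0.77 in HG-SIG against NC (SE 0.04, adjusted p = 1.97e-09). Fdft1, on the opposite strand, overlaps 12.8% of its exonic length, and no source used here gives the strand setting of the counting; Fdft1 itself averaged 30.0 CPM in HG-SIG, 52.4 in HG and 40.4 in NC, so it was low beside Ctsb.

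Cathepsin L is a strong endopeptidase of the lysosome. Ctsl (ENSMUSG00000021477, chr13:64359337-64370890, minus strand) was at 409, 410.1 and 386 CPM in HG-SIG, 596, 614 and 573 in HG, and 839, 862 and 828 in NC. Its groups did not overlap, and it had the largest fall of the members in both comparisons with NC. Ctsl fell to 0.676 of its HG level in HG-SIG (log2 fold change -0.57, SE 0.04, adjusted p = 1.54e-07), to 0.706 of its NC level in HG (-0.50, SE 0.04, adjusted p = 8.57e-07) and to 0.477 of its NC level in HG-SIG (-1.07, SE 0.04, adjusted p = 1.52e-10). An antisense gene, Gm47123, and a processed pseudogene on the same strand, Gm49230, overlap at most 26.8% of its exonic length; neither has a row in the table used here, so reads from them cannot be told apart from those of Ctsl.

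Cathepsin S stays active at neutral pH and makes the last cuts in the invariant chain. Ctss (ENSMUSG00000038642, chr3:95526786-95556403, plus strand) was at 294, 304 and 290.0 CPM in HG-SIG, 409.7, 431 and 394 in HG, and 402, 392 and 394 in NC. HG and NC libraries overlapped, and all HG-SIG libraries were below both. The log2 fold change was -0.48 in HG-SIG against HG (SE 0.04, adjusted p = 7.78e-07) and -0.42 in HG-SIG against NC (SE 0.04, adjusted p = 1.48e-06). In HG against NC it was 0.06 (SE 0.04, adjusted p = 0.315), not called.

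Cathepsin Z, also named cathepsin X, removes single residues from the carboxyl end. Ctsz (ENSMUSG00000016256, chr2:174427493-174439039, minus strand) was at 325, 312 and 305 CPM in HG-SIG, 386, 398 and 358 in HG, and 444, 491 and 466 in NC. In these TMM-scaled values all 3 groups were separate, and HG replicate 3 was the HG library closest to HG-SIG. Its log2 fold change of -0.28 in HG-SIG against HG (SE 0.05, adjusted p = 4.33e-04) was the smallest of the 10, and that of -0.30 in HG against NC (SE 0.05, adjusted p = 5.19e-04) was about as large. HG-SIG against NC gave -0.57 (SE 0.05, adjusted p = 5.61e-07).

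Cathepsin C, or dipeptidyl peptidase 1, takes dipeptides from the amino end and so activates the serine proteases of cytotoxic and mast cell granules. Ctsc (ENSMUSG00000030560, chr7:88278085-88310888, plus strand) was at 59.1, 60.1 and 61.4 CPM in HG-SIG, 74.4, 72.7 and 81.2 in HG, and 78.3, 83.9 and 84.0 in NC. HG and NC overlapped through HG replicate 3. The log2 fold change was -0.34 in HG-SIG against HG (SE 0.05, adjusted p = 7.77e-05) and -0.45 in HG-SIG against NC (SE 0.05, adjusted p = 4.08e-06). In HG against NC it was -0.11 (SE 0.05, adjusted p = 0.0998), and -0.16 without HG replicate 3 (adjusted p = 0.0127). Of its 8 listed serine protease substrates 1 had a row in the table and 0 passed the filter, so none was tested.

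Cathepsin H is mainly an aminopeptidase. Ctsh (ENSMUSG00000032359, chr9:90054152-90076089, plus strand) was scarce, with 34, 51 and 41 counts in HG-SIG, 54, 83 and 45 in HG, and 15, 20 and 22 in NC. Scaled, these were 1.07, 1.64 and 1.22 CPM in HG-SIG, 1.88, 3.26 and 1.98 in HG, and 0.498, 0.826 and 0.736 in NC. The groups were separate, with HG highest and NC lowest, and it was the member whose HG-SIG libraries all lay above NC.

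Ctsh rose in HG against NC by 1.80 on the log2 scale (SE 0.29, adjusted p = 4.73e-04), a ratio of summed, depth-adjusted counts of 3.50 with an exact 95% counting interval of 2.58 to 4.79. It fell in HG-SIG against HG by 0.85 (SE 0.26, adjusted p = 0.0148; ratio 0.553, interval 0.437 to 0.698) and was higher by 0.94 in HG-SIG than in NC (SE 0.30, adjusted p = 0.0175; ratio 1.93, interval 1.40 to 2.69). These intervals cover counting error only and leave out the spread between libraries, since counts were summed over the libraries of a group. Reads copied by PCR are not independent molecules, so the intervals may be too narrow even for counting error. The call in HG-SIG against HG was lost without HG-SIG replicate 1 (adjusted p = 0.0607) or HG replicate 2 (adjusted p = 0.0976). That in HG-SIG against NC was lost without HG-SIG replicate 2 (adjusted p = 0.0757) or NC replicate 1 (adjusted p = 0.0798).

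Legumain cuts after asparagine and trims several cathepsins into their mature chains. Lgmn (ENSMUSG00000021190, chr12:102394084-102439813, minus strand) was at 246, 244 and 254 CPM in HG-SIG, 385, 393 and 400.3 in HG, and 303, 304 and 305 in NC. Every HG library was above every NC library, and every HG-SIG library was below both. Lgmn rose to 1.29 times its NC level in HG (log2 fold change 0.37, SE 0.03, adjusted p = 3.04e-06). It fell to 0.632 of its HG level in HG-SIG (-0.66, SE 0.03, adjusted p = 7.35e-09), and HG-SIG against NC gave -0.29 (SE 0.03, adjusted p = 8.91e-06). With limma on log2(TPM + 1) the last of these was no longer called (log2 fold change -0.05, adjusted p = 0.186).

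Cathepsin D is the main aspartic endopeptidase of the lysosome. Ctsd (ENSMUSG00000007891, chr7:142375911-142388038, minus strand) was at 499, 489 and 496 CPM in HG-SIG, 769.5, 767 and 709 in HG, and 852, 845 and 822 in NC. The groups were separate and ordered as for Ctsb, with HG replicate 3 the lowest HG library. Ctsd fell by 33.9% in HG-SIG against HG (log2 fold change -0.60, SE 0.04, adjusted p = 7.96e-08), by 10.8% in HG against NC (-0.17, SE 0.04, adjusted p = 0.00598) and fell by 41.1% in HG-SIG against NC (-0.76, SE 0.04, adjusted p = 3.65e-09). Gm49369, a gene model on the same strand, covers 34.4% of its exonic length and can share its reads; it had 66 counts in the 3 HG-SIG libraries, 82 in HG and 76 in NC.

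Cathepsin A is a serine carboxypeptidase that also holds lysosomal neuraminidase and beta-galactosidase in a stable complex. Ctsa (ENSMUSG00000017760, chr2:164832873-164841032, plus strand) was at 436, 413 and 429 CPM in HG-SIG, 575, 574 and 581 in HG, and 614, 573 and 576 in NC. HG and NC overlapped and HG-SIG lay below both. The log2 fold change was -0.44 in HG-SIG against HG (SE 0.04, adjusted p = 1.21e-06) and -0.46 in HG-SIG against NC (SE 0.04, adjusted p = 4.12e-07). In HG against NC it was -0.03 (SE 0.04, adjusted p = 0.641), with a sign that turned under other scalings. Pltp, on the opposite strand, overlaps 10.5% of its exonic length; it averaged 25.8 CPM in HG-SIG, 43.3 in HG and 39.2 in NC.

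Among its partners in that complex, Neu1, the neuraminidase, rose in HG-SIG against HG (0.13, SE 0.04, adjusted p = 0.0125), a call lost without HG-SIG replicate 3 (adjusted p = 0.0529). Glb1, the beta-galactosidase, rose in HG against NC (0.21, SE 0.05, adjusted p = 0.00464) and had a log2 fold change of 0.04 in HG-SIG against HG (adjusted p = 0.519), but 0.20 with library size alone, where it was called higher (adjusted p = 0.00192). Galns, a sulfatase found with the complex, fell in HG-SIG against HG (-0.23, SE 0.05, adjusted p = 0.00339), a call lost with library size alone (-0.06, adjusted p = 0.311) and with limma on log2(TPM + 1) (-0.02, adjusted p = 0.692). Neither Neu1 nor Glb1 was called lower in HG-SIG, in which Ctsa fell.

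Cystatin C is the inhibitor of the set. Cst3 (ENSMUSG00000027447, chr2:148871722-148875692, minus strand) was at 614, 615 and 581 CPM in HG-SIG, 990.1, 1035 and 888 in HG, and 781, 748 and 691 in NC. As for Lgmn, HG was the highest group and HG-SIG the lowest, without overlap in these TMM-scaled values. HG replicate 3 was the lowest HG library. Cst3 rose to 1.31 times its NC level in HG (log2 fold change 0.39, SE 0.06, adjusted p = 2.37e-04) and fell to 0.621 of its HG level in HG-SIG (-0.69, SE 0.06, adjusted p = 9.67e-07). In HG-SIG against NC the log2 fold change was -0.29 (SE 0.06, adjusted p = 8.16e-04), a call that ended with library size alone (-0.10, adjusted p = 0.115) and with limma on log2(TPM + 1) (-0.06, adjusted p = 0.368).

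**Figure D3:**
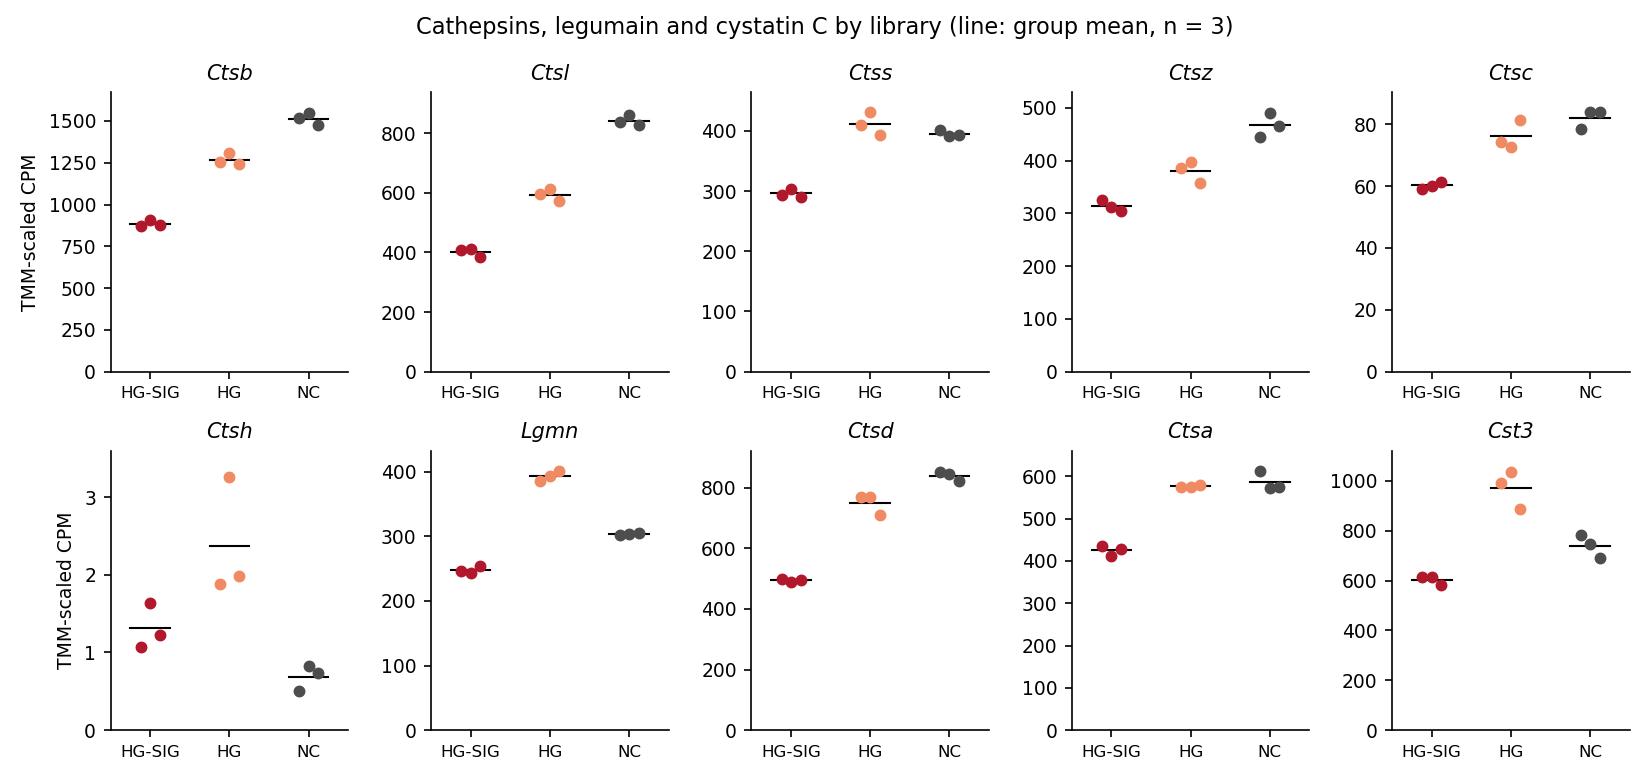
TMM-scaled CPM of each member in every library (points) with the group mean (line), 3 libraries per group, HG-SIG, HG and NC from left to right; every axis starts at 0. Ctsb, Ctsl, Ctsd and Ctsz are lowest in HG-SIG and highest in NC, whereas Lgmn, Cst3 and Ctsh are highest in HG.

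Ratios of counts between members within a library do not depend on how libraries are scaled. They compare transcript counts of the inhibitor and the proteases, without adjustment for length. Protein and protease activity were not measured. The count ratio of Cst3 to Ctsl was 1.50, 1.50 and 1.50 in HG-SIG, 1.66, 1.69 and 1.55 in HG, and 0.931, 0.868 and 0.834 in NC. Cst3 to the sum of the 6 cysteine cathepsins was 0.302 to 0.313 in HG-SIG, 0.335 to 0.366 in HG and 0.213 to 0.238 in NC. Cst3 to Ctsb was 0.663 to 0.703 in HG-SIG, 0.716 to 0.790 in HG and 0.469 to 0.514 in NC. In these ratios all 3 groups were separate, HG highest and NC lowest. With 3 libraries against 3, an exact two-sided permutation test cannot give a p below 0.1, so these are given as values.

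The ratio of Lgmn to Ctsl was 0.594 to 0.659 in HG-SIG and 0.639 to 0.699 in HG, which overlap, and 0.352 to 0.368 in NC, well below both. Ctss to Ctsl was 0.718 to 0.751 in HG-SIG, 0.687 to 0.702 in HG and 0.455 to 0.479 in NC. Lgmn to Cst3 overlapped between all groups, with means of 0.412 ± 0.0231 in HG-SIG, 0.406 ± 0.0388 in HG and 0.411 ± 0.0273 in NC (SD, n = 3). Ctsd to Ctsb also overlapped between HG-SIG and NC, at 0.538 to 0.571 in HG-SIG, 0.571 to 0.614 in HG and 0.547 to 0.560 in NC. The means of Lgmn to Cst3 differed by less than their SDs.

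**Figure D4:**
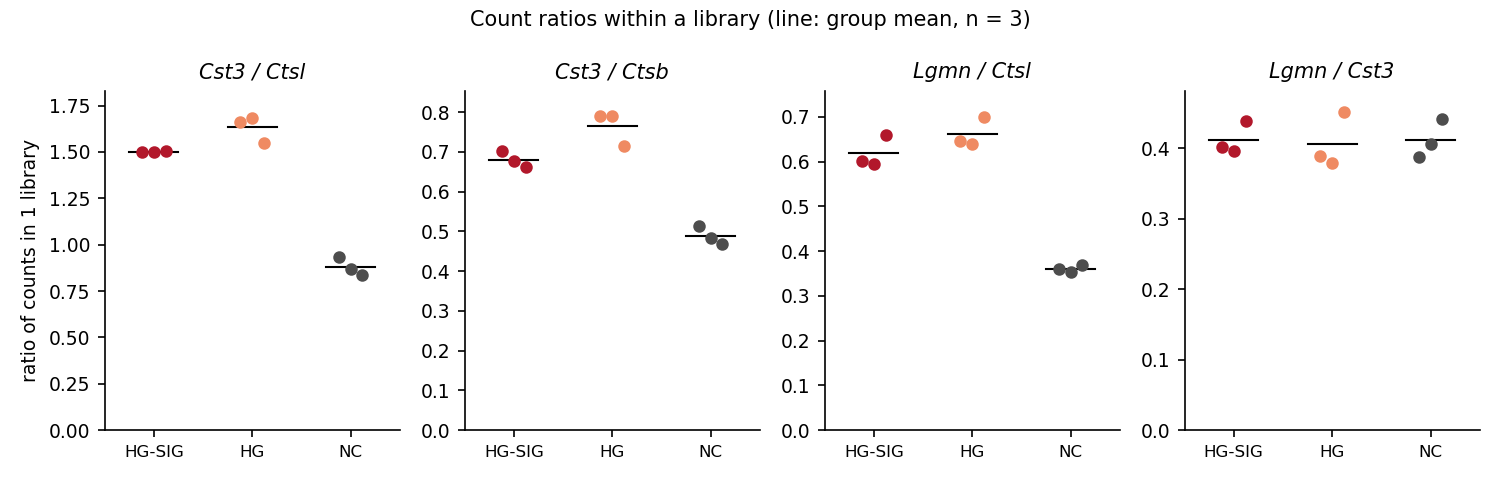
Ratio of the counts of 2 members in the same library (points) with the group mean (line), 3 libraries per group, HG-SIG, HG and NC from left to right. Cst3 / Ctsl, Cst3 / Ctsb and Lgmn / Ctsl are lowest in NC, and Lgmn / Cst3 lies between 0.379 and 0.451 in all 9 libraries.

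Other lysosomal peptidases, among them Ctsk, were read the same way. Of 10 tested, 3 fell and 1 rose in HG-SIG against HG, 1 rose and 0 fell in HG against NC, and 3 fell and 1 rose in HG-SIG against NC. These counts lie under the shares of all genes called, which were 52.5%, 29.5% and 58.6% in these comparisons. The median log2 fold change of the 10 in HG-SIG against HG was -0.03. With library size alone the balance turned, to 1 that fell and 4 that rose in HG-SIG against HG, and 1 that fell and 5 that rose in HG-SIG against NC. Ctsk was at 6.65 ± 0.341 CPM in HG-SIG, 13.2 ± 1.36 in HG and 13.2 ± 0.755 in NC (SD, n = 3), and fell in HG-SIG against HG by 0.99 (SE 0.09, adjusted p = 1.41e-06). Ctsf, cathepsin F, rose in HG against NC by 0.29 (SE 0.05, adjusted p = 0.00103) and fell in HG-SIG against HG by 0.20 (SE 0.05, adjusted p = 0.00468); the fall was lost with library size alone (-0.04, adjusted p = 0.493) and with limma on log2(TPM + 1) (-0.00, adjusted p = 0.972). Dpp7, a dipeptidyl peptidase that cuts after proline, fell by 0.20 in HG-SIG against HG (SE 0.07, adjusted p = 0.0283), although its libraries overlapped. The Dpp7 call was lost with library size alone (-0.04, adjusted p = 0.676), with limma on log2(TPM + 1), where the sign turned (0.0020, adjusted p = 0.983), without HG-SIG replicate 1 (adjusted p = 0.126), HG-SIG replicate 2 (adjusted p = 0.0589) or HG replicate 3 (adjusted p = 0.107), and with HG-SIG and HG alone in the fit (adjusted p = 0.0510). Prcp, a carboxypeptidase, was higher by 0.14 in HG-SIG than in NC (SE 0.04, adjusted p = 0.00671). In HG against NC, Napsa had -0.12 (adjusted p = 0.238) and Ctso -0.16 (adjusted p = 0.140).

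Other cystatins and further protease inhibitor genes, serpins among them, were counted too. Whether each acts on the members was not tested. Of 6 tested of 18 listed, 4 fell and 0 rose in HG against NC, 3 fell and 1 rose in HG-SIG against HG, and 5 fell and 0 rose in HG-SIG against NC. All genes were called lower at 15.2%, 26.8% and 28.7% in these comparisons, and higher at 14.3%, 25.7% and 29.9%. Scaled by library size alone, 3 fell and 2 rose in HG-SIG against HG, and 2 fell and 0 rose in HG-SIG against NC. Cstb, the cytosolic cystatin B, was at 86.8, 92.8 and 89.7 CPM in HG-SIG, 125, 127 and 116 in HG, and 133, 139 and 137 in NC. Its groups did not overlap, and unlike Cst3 it fell in HG against NC (-0.15, SE 0.04, adjusted p = 0.0157), a call lost without NC replicate 2 (adjusted p = 0.0516) or NC replicate 3 (adjusted p = 0.0507). It fell in HG-SIG against HG by 0.45 (SE 0.04, adjusted p = 2.53e-06). Cst7, cystatin F of the endolysosome, fell in HG-SIG against HG by 0.94 (SE 0.18, adjusted p = 9.30e-04) at 1.60 CPM in HG-SIG and 3.09 in HG. Serpinb6b, a scarce serpin gene, was at 0.207 CPM in HG-SIG, 0.899 in HG and 2.19 in NC, and fell in HG-SIG against HG by 2.09 (SE 0.29, adjusted p = 6.38e-05). Its relative Serpinb6a fell in HG against NC by 0.16 (SE 0.04, adjusted p = 0.00984).

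Genes that sort the proteases to the lysosome were called in both directions. Of 20 tested, 7 fell and 2 rose in HG-SIG against HG, 4 fell and 4 rose in HG against NC, and 7 fell and 5 rose in HG-SIG against NC. The shares of all genes called were 52.5%, 29.5% and 58.6%. In both comparisons with HG-SIG the list was therefore near or under the share of all genes. The balance depends on the scaling: with library size alone 3 fell and 9 rose in HG-SIG against HG, 2 fell and 5 rose in HG against NC, and 3 fell and 12 rose in HG-SIG against NC. So scaled, 7919 of all 13311 genes were called in HG-SIG against HG, 6093 of them higher. The receptors of the mannose 6-phosphate tag were among those that fell. M6pr, the small receptor, was at 399, 401 and 389 CPM in HG-SIG, 519, 535 and 523 in HG, and 628, 627 and 634 in NC. Igf2r, the large receptor, was at 147, 148 and 166 CPM in HG-SIG, 175, 179 and 199 in HG, and 247, 234 and 274 in NC. The 3 groups were separate for both genes. M6pr fell by 0.41 in HG-SIG against HG (SE 0.03, adjusted p = 4.85e-07) and by 0.26 in HG against NC (SE 0.03, adjusted p = 5.34e-05). Igf2r fell by 0.45 in HG against NC (SE 0.07, adjusted p = 2.32e-04) and by 0.71 in HG-SIG against NC (SE 0.07, adjusted p = 1.38e-06). Cln8, a receptor that carries lysosomal enzymes out of the endoplasmic reticulum, fell by 0.53 in HG-SIG against HG (SE 0.05, adjusted p = 1.22e-06). Nagpa, which uncovers the tag, rose by 0.26 in HG against NC (SE 0.04, adjusted p = 2.52e-04), and Ap1b1, an adaptor subunit, rose by 0.21 in HG-SIG against HG (SE 0.03, adjusted p = 2.51e-04).

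Genes of the MiT family and of lysosomal signalling were called in both directions. Of 12 tested genes of this family and of lysosomal signalling, 5 fell and 1 rose in HG-SIG against HG, 5 fell and 1 rose in HG against NC, and 8 fell and 1 rose in HG-SIG against NC. Beside them, 52.5%, 29.5% and 58.6% of all genes were called in these comparisons. With library size alone 4 fell and 6 rose in HG-SIG against HG, and 4 fell and 5 rose in HG-SIG against NC. Mitf was at 39.5, 40.5 and 39.2 CPM in HG-SIG, 124, 126 and 118 in HG, and 168, 160 and 175 in NC, so the groups lay far apart. Tfeb was at 11.8, 12.2 and 12.1 CPM in HG-SIG, 21.0, 19.9 and 19.2 in HG, and 16.6, 16.6 and 16.6 in NC, highest in HG. Mitf fell in HG-SIG against HG by 1.63 (SE 0.04, adjusted p = 3.73e-11) and in HG against NC by 0.45 (SE 0.04, adjusted p = 3.69e-06). Tfeb fell in HG-SIG against HG by 0.74 (SE 0.06, adjusted p = 4.32e-07) and rose in HG against NC by 0.27 (SE 0.06, adjusted p = 0.00278). Tfe3 fell in HG against NC by 0.21 (SE 0.04, adjusted p = 0.00133), and Fnip2, a partner of folliculin, fell in HG-SIG against HG by 0.33 (SE 0.04, adjusted p = 9.49e-06).

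Genes on which these proteases act were measured as well. Of 6 genes, the endosomal Toll-like receptors and their chaperone, 4 fell and 1 rose in HG-SIG against HG, 2 fell and 1 rose in HG against NC, and 5 fell and 1 rose in HG-SIG against NC. For all genes the shares called were 52.5%, 29.5% and 58.6%. Scaled by library size alone, 3 fell and 1 rose in HG-SIG against NC, and 2 fell and 2 rose in HG against NC. Tlr7, a receptor for single-stranded RNA, was at 87.5, 95.3 and 92.8 CPM in HG-SIG, 197, 222 and 212 in HG, and 166, 173 and 168 in NC. It was highest in HG and lowest in HG-SIG without overlap, the order seen for Lgmn and Cst3. Tlr7 fell by 1.19 in HG-SIG against HG (SE 0.05, adjusted p = 9.41e-10) and rose by 0.32 in HG against NC (SE 0.05, adjusted p = 2.42e-04). Tlr13, a sensor of bacterial RNA, fell by 1.02 in HG-SIG against HG (SE 0.07, adjusted p = 1.96e-07) and Unc93b1, the chaperone, by 0.32 (SE 0.03, adjusted p = 4.72e-06). Tlr3, which senses double-stranded RNA, was at 11.2 ± 0.303 CPM in HG-SIG, 6.81 ± 0.218 in HG and 8.29 ± 0.530 in NC (SD, n = 3). It was the receptor that rose in HG-SIG against HG, by 0.72 (SE 0.07, adjusted p = 5.26e-06), and in HG-SIG against NC, by 0.43 (SE 0.07, adjusted p = 1.94e-04). Tlr3 fell in HG against NC by 0.29 (SE 0.08, adjusted p = 0.0141), a call lost with DESeq2 (adjusted p = 0.0583) and without NC replicate 1 (adjusted p = 0.0557) or NC replicate 3 (adjusted p = 0.0557).

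Of 11 listed genes of class II antigen processing, 4 could be tested. Calls made up 29.5% of all genes in HG against NC, 52.5% in HG-SIG against HG and 58.6% in HG-SIG against NC. In HG against NC, Cd74, which encodes the invariant chain, fell by 0.32 (SE 0.04, adjusted p = 6.11e-05) and Ifi30, a lysosomal thiol reductase, rose by 0.12 (SE 0.04, adjusted p = 0.0345). That rise was lost with HG and NC alone in the fit (adjusted p = 0.0793) and in 6 of the 9 fits that left out 1 library (adjusted p = 0.0541 to 0.142). In HG-SIG against HG, 1 of the 4 was called: Ifi30 fell by 0.20 (SE 0.04, adjusted p = 8.20e-04), while Cd74 had 0.09 (SE 0.04, adjusted p = 0.0649). Ifi30 was no longer called with library size alone (-0.04, adjusted p = 0.363) or with limma on log2(TPM + 1) (0.0062, adjusted p = 0.865), and Cd74 was called higher with library size alone (0.26, adjusted p = 1.02e-04). In HG-SIG against NC, 1 of the 4 was called, Cd74, with -0.22 (SE 0.04, adjusted p = 3.35e-04), which was lost with library size alone (-0.03, adjusted p = 0.464) and with limma on log2(TPM + 1) (0.014, adjusted p = 0.701).

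**Figure D5:**
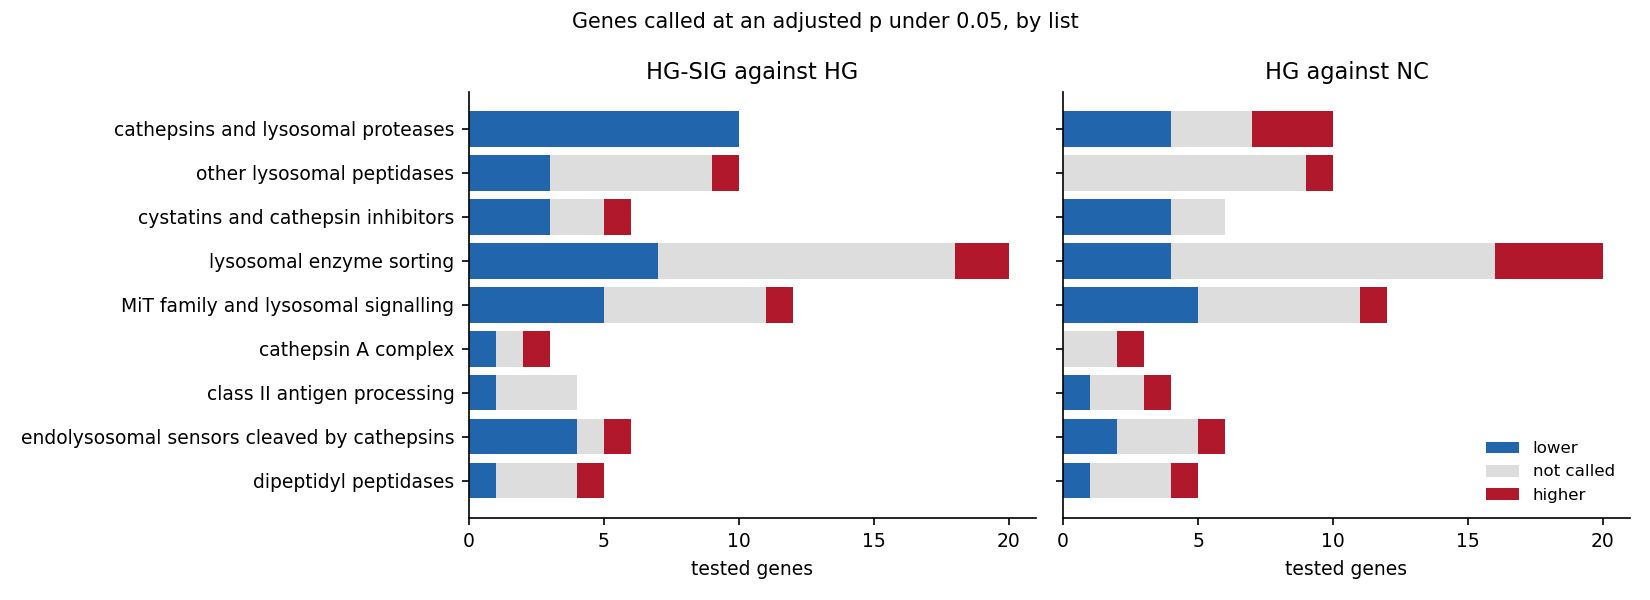
Number of tested genes called lower, not called and called higher (edgeR with TMM, adjusted p under 0.05) for the members and 8 related lists, HG-SIG against HG on the left and HG against NC on the right. The members' bar is entirely lower on the left, and on the right it divides into 4 lower, 3 not called and 3 higher. For all genes tested, 26.8% were called lower and 25.7% higher on the left, and 15.2% and 14.3% on the right.

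A list of genes named dipeptidyl peptidases, with Fap and Prep, was looked at last. Dpp4, the gene of sitagliptin's target, has no row in the table used here. Of 5 others tested, 1 rose and 1 fell in HG-SIG against HG, 1 rose and 1 fell in HG against NC, and 0 rose and 1 fell in HG-SIG against NC. Among all genes 52.5%, 29.5% and 58.6% were called in these comparisons, in that order. Dpp3, a cytosolic dipeptidyl peptidase, rose by 0.18 in HG-SIG against HG (SE 0.04, adjusted p = 0.00387) and fell by 0.12 in HG against NC (SE 0.04, adjusted p = 0.0464). The fall of Dpp3 in HG against NC was lost under 13 of the 18 alternatives, among them library size alone (-0.09, adjusted p = 0.129) and DESeq2 (-0.13, adjusted p = 0.0735). Prep, which cleaves after proline inside peptides, fell by 0.23 in HG-SIG against HG (SE 0.04, adjusted p = 1.78e-04) and by 0.22 in HG-SIG against NC (SE 0.04, adjusted p = 2.12e-04). Both calls of Prep were lost with library size alone (-0.07, adjusted p = 0.0931 against HG; -0.03, adjusted p = 0.472 against NC) and with limma on log2(TPM + 1) (-0.03, adjusted p = 0.486 against HG; 0.016, adjusted p = 0.695 against NC). Dpp8 (0.09, adjusted p = 0.0761) and Dpp9 (0.08, adjusted p = 0.103), cytosolic dipeptidyl peptidases, were not called in HG-SIG against HG, nor in the other comparisons, with TMM. With library size alone both were called higher in HG-SIG than in HG (0.25, adjusted p = 1.08e-04 for Dpp8 and 0.24, adjusted p = 2.75e-04 for Dpp9). Dpp10 was scarce, at 0.271 ± 0.0442 CPM in HG-SIG, 0.435 ± 0.111 in HG and 0.161 ± 0.0944 in NC (SD, n = 3), and rose in HG against NC (1.39, SE 0.44, adjusted p = 0.0303). The Dpp10 call was lost with no filter (adjusted p = 0.0545), with DESeq2 (adjusted p = 0.104), with limma on log2(TPM + 1) (adjusted p = 0.418) and without HG replicate 1 or 2 or NC replicate 2 or 3 (adjusted p = 0.0924 to 0.103). Dpp6 and Fap did not pass the filter.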

How the data were processed

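Gene read counts were deposited as 1 table with a column per library, all values whole (100%). The submitters' processing notes name mm10, RSEM and Bowtie2 2.3.5, so the authors may have rounded estimated counts; no source used here gives the annotation or the strand setting. Per the labels' protocols, RNA was selected with oligo(dT) and primed with random hexamers; the labels give a single batch. The 1996 loci without a gene name (5.85% to 6.21% of a library's counts) stayed in the tests. Coordinates and lengths came from GENCODE M21 (GRCm38), promoter windows from RefSeq.

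Counts were filtered with filterByExpr (13311 genes left), TMM-scaled, and modelled together for 9 libraries in edgeR 4.0.16 (R 4.3.3). Quasi-likelihood F-tests were adjusted by Benjamini-Hochberg over all genes and called under 0.05; SEs were derived from the F statistic. Every adjusted p is from this test unless another is named. Library size alone, DESeq2 1.42.0 and its size factors, limma 3.58.1 (voom, and trend on log2(TPM + 1)), no filter, 2 groups only, loci without a name left out, a replicate block and each library left out were tried, 18 alternatives per comparison. On simulated HG against NC counts (13169 genes, 200 changed) the test recovered 74% of changes of 0.5 and 88.7% of changes of 1 on the log2 scale, with 5.88% false calls. Replicates differed beyond counting noise (2.85 to 9.45 chi-square units per gene).

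Members and lists were chosen with earlier results of these data known. Besides the members, up to 3 genes per list and comparison with the smallest p, the dipeptidyl peptidases, Ctsk, Cstb, Tfeb and Mitf were eligible to be named, and not all are described. Spi1, Lyz2, Lck and Mpo, Tlr3 in both HG-SIG comparisons, and the genes that overlap members, were added after their values were seen.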

Additional observations from a re-analysis of the deposited data

How the results depend on the processing

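The number of genes called and the number of members called kept within 1.5 times of the values reported under all 18 alternatives of each comparison. In HG-SIG against HG, 8 to 10 members were called (9 to 10 when 1 library was left out) and 6193 to 8092 genes (6193 to 7147); in HG against NC, 7 to 8 members and 3062 to 4663 genes (3062 to 4000 with 1 library left out); in HG-SIG against NC, 8 to 10 members (9 to 10) and 7106 to 8906 genes (7106 to 8191). Of 540 member values under alternatives, 526 kept direction and call, 9 lost and 2 gained a call and 3 changed sign. The sign changes were of Ctsa in HG against NC, 0.0022 with library size alone, 0.0057 with limma on log2(TPM + 1) and 0.0055 without NC replicate 1 (-0.045 to 0.0055 over the libraries left out). The scaling moved the balance of calls: with library size alone 76.2% of calls in HG-SIG against NC and 58.9% in HG against NC were higher, against 51.0% and 48.4% with TMM, and the median log2 fold change of all genes became 0.21 and 0.03; limma on log2(TPM + 1) gave 80.2% and 59.2%.

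Whether replicate numbers pair the libraries is not settled. Deviations from group means correlated between -0.0027 and 0.0988 for same-numbered libraries of different groups. For libraries with different numbers they correlated between -0.0768 and 0.0408, so same-numbered values leaned higher, though all were small. The labels state no pairing, and the replicate block is given here as an alternative alone. With the replicate block, 8 members were called in HG against NC (Ctsc gained, adjusted p = 0.0405), 10 in HG-SIG against HG and 10 in HG-SIG against NC, of 4663, 7563 and 8282 genes.

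Counts of calls in genes of 200 CPM or more and in the related lists under other scalings were added after the data were seen. Other named genes changed sign under an alternative as follows, the cause not being tested. In HG against NC, Ctsk had -0.063, -0.0049 and -0.023 without HG replicate 2, NC replicate 2 and NC replicate 3 (-0.063 to 0.076 over all left out); Dpp8 had 0.028 with library size alone, 0.0035 without the filter, 0.030 with limma on log2(TPM + 1), and 0.028, 0.0014, 0.0027 and 0.013 without HG replicates 1 and 2 and NC replicates 2 and 3 (-0.036 to 0.028 over all left out); Dpp9 had 0.0030 with library size alone and 0.0045 with limma on log2(TPM + 1), and Neu1 -0.0038 without HG replicate 3 (-0.0038 to 0.034 over all left out). In HG-SIG against HG, Dpp7 had 0.0020 and Ifi30 0.0062 with limma on log2(TPM + 1). In HG-SIG against NC, limma on log2(TPM + 1) gave Galns 0.13, Ifi30 0.15, Prep 0.016, Serpinb6a 0.023 and Cd74 0.014, and library size alone gave Galns 0.092 and Ifi30 0.11. The level per kilobase with the longest principal transcript, an alternative added after the data were seen, moved Ctsl and Lgmn (Lgmn to 125 in HG-SIG, 197 in HG and 153 in NC). Ctsh is the scarcest member, at 15 to 83 counts per library; of other named genes, Dpp10 had 2 to 14.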
